A study of Rattus norvegicus with 6 samples.

Results

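The genes described here encode the subunits of the oxidative phosphorylation machinery that are carried by the nuclear genome, and they were compared between the livers of rats given TCEP, which is tris(2-chloroethyl) phosphate, a flame retardant of the chlorinated organophosphate kind, and of rats given corn oil. They were chosen by name alone: every gene on the array whose symbol, read through its RefSeq transcript, follows the naming of complex I (Ndufa, Ndufb, Ndufc, Ndufs and Ndufv with a number), complex II (Sdha to Sdhd), complex III (Uqcr), complex IV (Cox4 to Cox8) or complex V (Atp5). The array held 76 such genes through 131 probes, with 32 in complex I, 4 in complex II, 8 in complex III, 17 in complex IV and 15 in complex V. Of these, 75 passed the detection filter (signal well above background in all 3 animals of either group), as did 27642 gene names in all. The exception was Cox8c, with 2 probes that the scanner software never called well above background. Of the 75 tested, 74 are annotated as protein coding. The other, Cox6c-ps1, is a transcribed pseudogene (difference -0.12 ± 0.28), and probes for such near-identical copies can share signal. The acyl carrier protein of complex I, Ndufab1, has a symbol outside this naming and is given only beside the other genes of the pathway.

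The study used male Sprague-Dawley rats bought at 5 weeks of age, kept on a basal diet, with no genetic change in either group. The 3 control animals received corn oil, and the 3 treated animals received TCEP at 400 mg/kg/day. The treatment record gives 9 weeks of dosing in both groups, whereas the series' design statement gives 28 days, and the length of exposure is therefore not settled. Total RNA from each liver was labelled with Cy3 and hybridised to its own 1-colour Agilent array, so that n = 3 animals per group throughout.

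Oxidative phosphorylation passes electrons from NADH (complex I) and succinate (complex II) through ubiquinone to complex III, and from there through cytochrome c to complex IV, where oxygen is reduced. The protons pumped on the way drive ATP synthesis by complex V. Liver is rich in mitochondria and uses this ATP for urea synthesis, gluconeogenesis and drug metabolism, and most subunits are made in the cytosol from nuclear genes and imported, while a small group of core subunits is encoded by mitochondrial DNA.

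Between 57.2% and 64.4% of probes were well above background on an array, and the arrays correlated with each other at 0.9857 to 0.9928 over all probes. Corn oil animals 1 and 3 shared a slide, corn oil animal 2 lay on another slide that was scanned 23 days later, and all 3 TCEP arrays lay together on another slide, with no corn oil array beside them. Slide and treatment cannot be told apart for any value below. All 10 hepatocyte markers were well above background on all 6 arrays, and their mean log2 level ran from 8.21 to 8.37 in corn oil and from 8.05 to 8.20 in TCEP livers. In bulk tissue, fewer cells of a type and less RNA per cell cannot be told apart.

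Most of these genes had a slightly higher mean in TCEP livers, and no single gene passed the test. The mean was higher in TCEP for 64 of 75 genes (85.3%), against 50.9% of all 27642 gene names, and for 46 of 75 (61.3%) when the arrays were quantile normalised. The median difference was 0.11 on the log2 scale, or 8.19%, against 0.0048 for all gene names. The differences ran from -0.24 (Cox6a2) to 0.36 (Ndufs1). By limma with Benjamini-Hochberg adjustment over all gene names, 0 of the 75 genes had an adjusted p under 0.05, as did 0% of all names, and the smallest adjusted p among the 75 was 0.495. At an unadjusted limma p under 0.05, 6 of the 75 were higher in TCEP, against 5.01% of all names, and 0 were lower, against 4.19% of all names (9.2% in either direction). The groups did not overlap, with every TCEP array above every corn oil array, for 23 genes, against 10.3% of all names, and every TCEP array lay below every corn oil array for 3 genes, against 7.06%. Under quantile normalisation these counts were 11 and 9, against 9.28% and 7.11% of all names. For the brightest probe of each gene, the 95% interval lay within 1 log2 unit of 0 for all 75 genes and within 0.5 for 63. A doubling or halving thus lay outside every interval of these probes. This does not extend to all further probes. The second probe of Ndufs4 gave 0.56 ± 0.25, where the brightest gave 0.11 ± 0.09, and the second of Cox8b gave 0.50 ± 0.40.

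**Figure D1:**
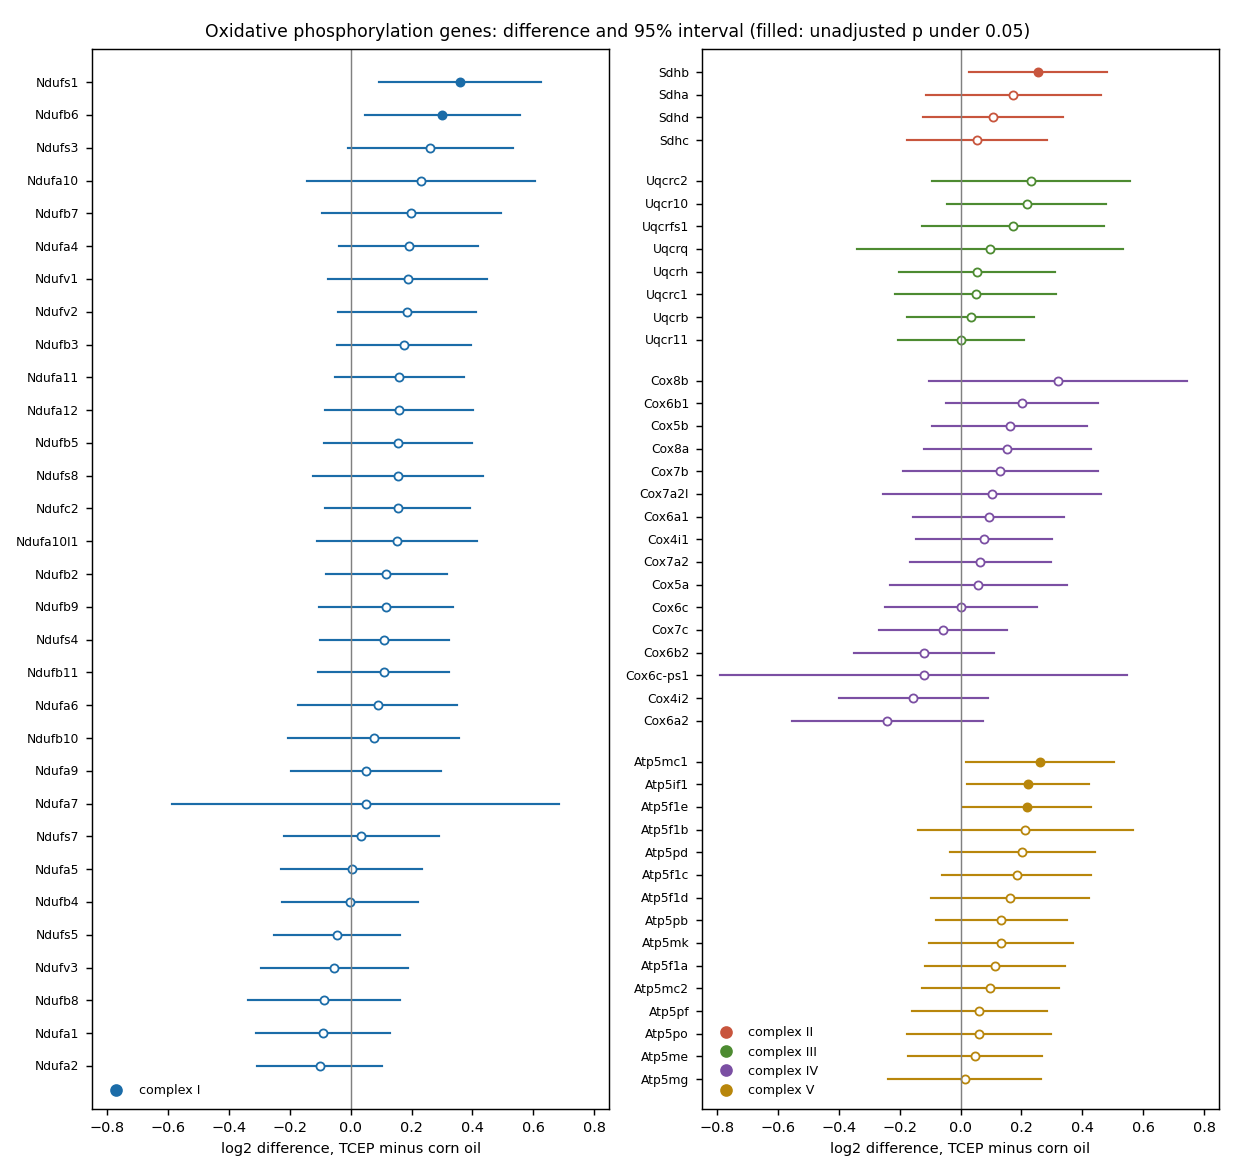
Log2 difference, TCEP minus corn oil (x axis), with its 95% interval from limma for 74 of the 75 genes (rows, ordered by size within complexes I to V, n = 3 arrays per group). Filled circles mark the 6 genes at an unadjusted p under 0.05, from Ndufs1 at 0.36 to Atp5f1e at 0.22, and the points of complexes II, III and V all lie above 0, which under quantile normalisation held for 3 of 4, 4 of 8 and 11 of 15 genes.

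The 3 treated animals did not read alike. Expressed as each gene's deviation from its own mean over the 6 arrays, the median over the 75 genes was -0.05, -0.12 and -0.01 in corn oil animals 1, 2 and 3, and -0.04, 0.09 and 0.09 in TCEP animals 1, 2 and 3. TCEP animal 1 lay below corn oil animal 3, so the groups overlapped on this measure. Corn oil animal 2, the array scanned apart from its group, had the lowest value of all 6 arrays for 48 of the 75 genes. The highest value fell in TCEP animal 2 for 32 genes and in TCEP animal 3 for 29 genes, but in TCEP animal 1 for 1 gene. Complexes I to V followed this order of arrays with small differences: in TCEP animal 1 the medians ran from -0.07 for complex IV to -0.01 for complex II, and in TCEP animal 2 from 0.08 for complex I to 0.16 for complex II. Over all gene names the medians stayed between -0.02 and 0.02 on every array. Without TCEP animal 1 the number of genes whose groups did not overlap, higher in TCEP, went from 23 to 42, and without corn oil animal 3 to 35, while the background over all names went to 16.3% and 17.2%. The genes varied little within a group, with a median SD of 0.08 in corn oil and 0.09 in TCEP, against 0.19 and 0.14 over all gene names.

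**Figure D2:**
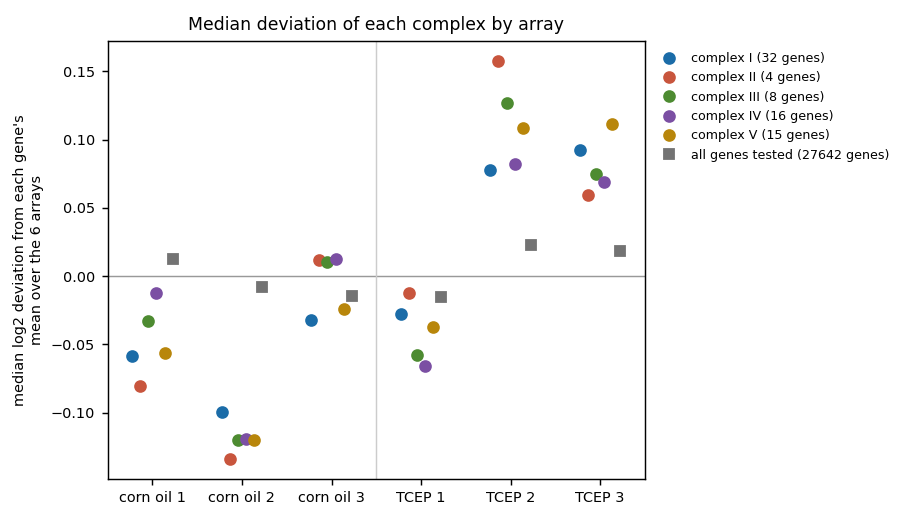
Median log2 deviation of the genes of each complex from their own means over the 6 arrays (y axis), for each array (x axis), with the median of all 27642 gene names as grey squares. TCEP animals 2 and 3 lie highest for every complex, corn oil animal 2 lies lowest, and TCEP animal 1 lies within the range of the corn oil arrays for complexes II to V and just above it for complex I.

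The direction moved with signal level across the whole array, and most of the oxidative phosphorylation genes were bright. Among all 2040 gene names with a mean log2 signal of 4 to 6 above the array's 75th percentile, 70.5% had a higher mean in TCEP and the median difference was 0.09, and among the 1211 names over 6, 65.6% were higher with a median of 0.08. The 28 oxidative phosphorylation genes in the first of these ranges had a median difference of 0.16 and 27 were higher, and the 33 genes in the second had a median of 0.09 and 28 were higher. Among the 15583 names with signals under the 75th percentile, 44.7% were higher and the median was -0.03. After quantile normalisation, which gives every array the same distribution of signals, the medians of all names in both bright ranges were 0.00 and 0.01. The corresponding medians for the 28 and 33 genes were then 0.05, with 20 higher, and 0.01, with 18 higher. The part of this level trend in the differences of single genes was not tested.

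**Figure D3:**
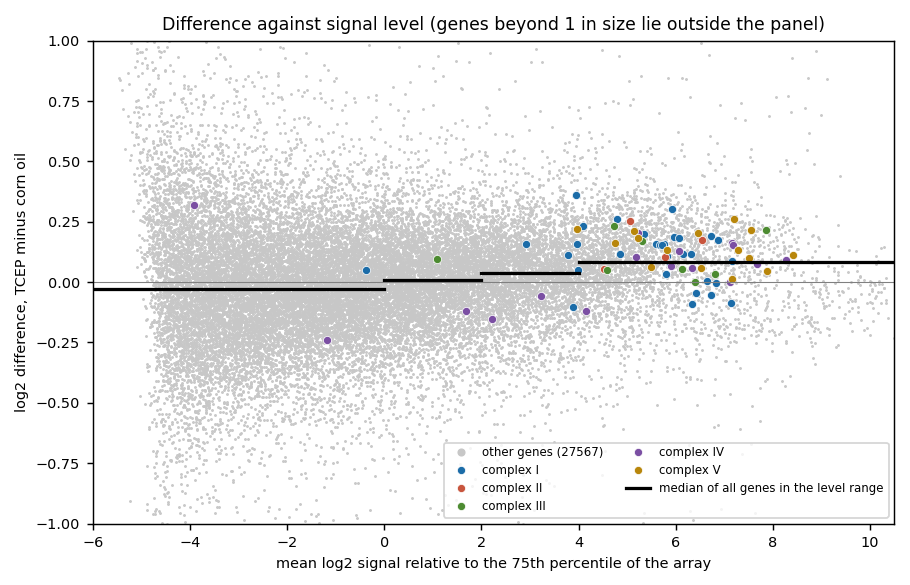
Log2 difference, TCEP minus corn oil (y axis), against the mean log2 signal relative to the array's 75th percentile (x axis), for the 75 oxidative phosphorylation genes in colour by complex and 27567 other gene names in grey, with black bars at the median of all names in each signal range. The bars rise from -0.03 on the left to 0.08 on the right, and most coloured points sit at signals above 4.

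The 6 genes at an unadjusted p under 0.05 came from 3 complexes: Ndufs1 and Ndufb6 from complex I, Sdhb from complex II, and Atp5if1, Atp5mc1 and Atp5f1e from complex V. All 6 had groups that did not overlap, which their selection by p on the same arrays makes likely. Ndufs1 stayed under 0.05 in 15 of 17 alternative treatments of the data, Ndufb6 in 11, Sdhb and Atp5mc1 in 10 each, and Atp5if1 and Atp5f1e in 7 each. Some alternatives nearly repeat the main fit: with the deposited table or kept outlier spots the limma p of Ndufs1 was again 0.0158. Leaving out corn oil animal 2 or TCEP animal 3 left 0 genes higher at that level, where 4.07% and 2.95% of all names were higher in the same fits. Without corn oil animal 2 the only genes past it were lower, Cox6a2 at -0.34 and the pseudogene Cox6c-ps1 at -0.44 (-0.12 with all arrays, and -0.44 to 0.06 over the arrays left out in turn). Without corn oil animal 1 the count was 1, against 4.48% of all names, and without TCEP animal 2 it was 2, against 2.96%.

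**Figure D4:**
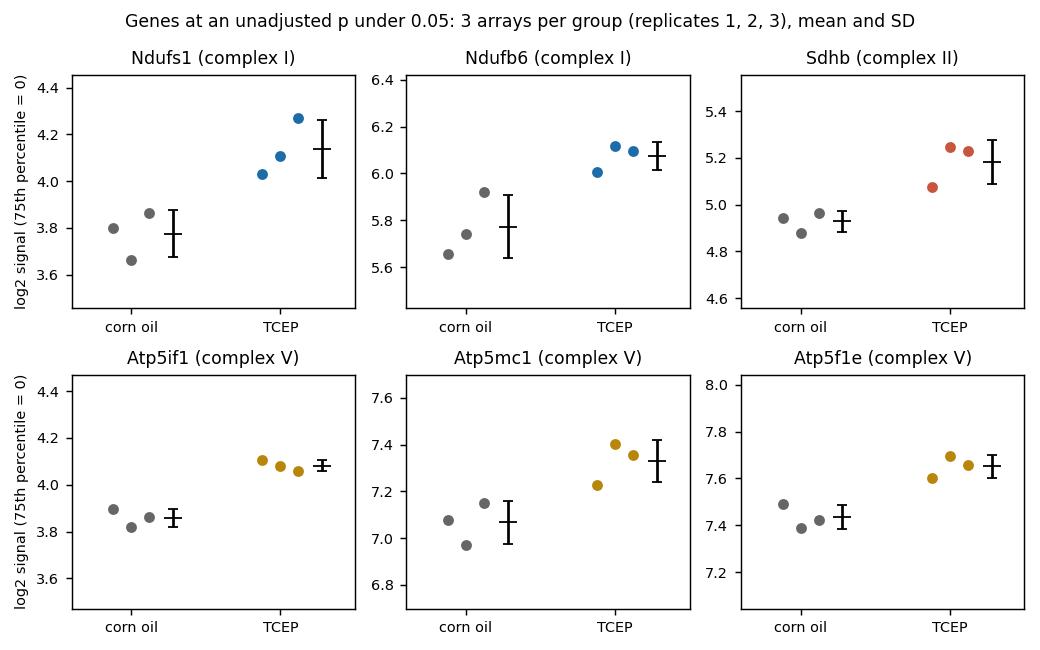
Log2 signal relative to the array's 75th percentile (y axis) for each of the 3 corn oil (grey) and 3 TCEP (coloured) arrays, in order of replicate number, with mean and SD, for the 6 genes at an unadjusted p under 0.05. Each panel spans 1 log2 unit. In every panel the lowest TCEP array lies above the highest corn oil array, which selection by p on these arrays makes likely.

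Promoters of nuclear genes for mitochondrial proteins are known for sites of NRF1, of the ETS factor GABPA and of YY1. RefSeq promoter windows (250 bases before to 50 after the start, build GRCr8) were matched for 65 of the 75 genes and searched on both strands for GCATGCGC (NRF1), CCGGAAG (ETS) and GCCATCTT (YY1), words that do not overlap each other in the windows shown. At least 1 of these words was found in 29 of the 65 windows (44.6%), against 13.3% of 33469 windows of the same length. The NRF1 word was found in 8 (12.3%, against 2.47% of all windows), the ETS word in 20 (30.8%, against 8.75%) and the YY1 word in 12 (18.5%, against 3.17%). The median difference between TCEP and corn oil was 0.08 for genes with the NRF1 word and 0.13 for those without it, 0.10 and 0.13 for the ETS word, and 0.05 and 0.16 for the YY1 word, so that genes with a word did not have the larger medians. These are descriptions of letters in a window and not of binding. The windows are shown for Ndufs1, the gene with the largest difference (chr9:72073556-72073855, minus strand), for Sdhb, which has 2 of the words and a low p (chr5:158547684-158547983, plus strand), and for Atp5me (chr14:1464610-1464909, plus strand), chosen after its values were seen as 1 of 2 genes, with Ndufa6, that hold all 3 words. Capitals mark the words, and the run of 10 capitals in Atp5me is the NRF1 word on both strands, overlapping itself. The windows of Ndufb6 and Atp5if1 hold none of them.
Ndufs1: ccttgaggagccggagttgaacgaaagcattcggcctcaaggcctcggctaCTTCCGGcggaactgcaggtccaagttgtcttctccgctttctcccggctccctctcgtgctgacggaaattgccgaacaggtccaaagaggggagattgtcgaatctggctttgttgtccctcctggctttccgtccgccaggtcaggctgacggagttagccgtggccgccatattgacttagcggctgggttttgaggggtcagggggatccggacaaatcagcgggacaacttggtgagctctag
Sdhb: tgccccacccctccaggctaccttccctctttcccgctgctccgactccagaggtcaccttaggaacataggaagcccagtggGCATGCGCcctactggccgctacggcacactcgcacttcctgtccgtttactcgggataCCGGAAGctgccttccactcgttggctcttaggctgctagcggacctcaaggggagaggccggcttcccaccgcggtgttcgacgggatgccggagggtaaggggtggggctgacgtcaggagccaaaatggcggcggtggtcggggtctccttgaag
Atp5me: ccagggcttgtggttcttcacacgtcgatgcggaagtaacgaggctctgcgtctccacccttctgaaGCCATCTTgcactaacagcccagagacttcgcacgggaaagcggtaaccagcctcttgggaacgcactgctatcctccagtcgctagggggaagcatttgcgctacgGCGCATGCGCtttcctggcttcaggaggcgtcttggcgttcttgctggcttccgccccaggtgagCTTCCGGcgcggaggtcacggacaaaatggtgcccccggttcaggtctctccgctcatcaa

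Complex I, the NADH dehydrogenase, had 26 of 32 genes with a higher mean in TCEP and a median difference of 0.12, and 20 of 32 with a median of 0.05 under quantile normalisation. Its 7 nuclear core subunits, which bind the flavin and the iron-sulfur clusters and carry electrons from NADH to ubiquinone, had a median of 0.18. All 7 were higher as processed here, 6 of 7 under quantile normalisation and after normexp background correction, with Ndufs7 the exception in both. Ndufs1, the largest iron-sulfur subunit, read 3.80, 3.66 and 3.86 in corn oil and 4.03, 4.11 and 4.27 in TCEP livers, in log2 units above the array's 75th percentile. Its 2 groups lay apart, with a difference of 0.36 ± 0.11 (SE, n = 3 per group), which is 28.3%, and a limma p of 0.0158 (adjusted 0.495). A second Ndufs1 probe gave 0.32 ± 0.17.

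Ndufs3, a core subunit of the arm that leads to the quinone site, read 4.65, 4.57 and 4.74 in corn oil and 4.77, 4.92 and 5.06 in TCEP, a difference of 0.26 ± 0.11 without overlap. Ndufv2, an iron-sulfur partner of the flavin subunit, read 5.99, 5.91 and 6.02 against 6.10, 6.12 and 6.26, a difference of 0.18 ± 0.09, also without overlap. Ndufv1, the flavin-binding subunit where NADH is oxidised, differed by 0.19 ± 0.11, but its lowest TCEP array (5.92) lay below its highest corn oil array (5.94). Ndufs8, which carries iron-sulfur clusters of the same arm, differed by 0.16 ± 0.12 with overlap. Ndufs7, the subunit of the last iron-sulfur cluster, differed by 0.03 ± 0.10, and by -0.07 under quantile normalisation. All of these intervals but that of Ndufs1 included 0.

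The 23 accessory subunits of complex I, which surround the core and take part in its assembly and stability, had 17 higher means, a median of 0.11, and groups apart for 10 genes higher and 1 lower, against 10.3% and 7.06% of all names. Ndufb6, an accessory subunit of the membrane arm, read 5.66, 5.74 and 5.92 in corn oil and 6.01, 6.12 and 6.10 in TCEP. The difference was 0.30 ± 0.11 (limma p 0.0277, adjusted 0.521), and the groups did not overlap although corn oil animal 3 (5.92) lay close to TCEP animal 1 (6.01). The gene at the other end was Ndufa2, a small accessory subunit, at 3.89, 3.97 and 3.94 against 3.84, 3.79 and 3.88, a difference of -0.10 ± 0.08 with every TCEP array below every corn oil array. The accessory subunits with the highest signal, Ndufa6 and Ndufb8, differed by 0.09 ± 0.11 and by -0.09 ± 0.10 with overlapping groups, and Ndufa6 by -0.01 under quantile normalisation. Ndufa4, named for complex I but now regarded as a subunit of complex IV, read 6.66, 6.56 and 6.67 in corn oil and 6.76, 6.92 and 6.79 in TCEP, a difference of 0.19 ± 0.09 without overlap.

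Complex II, succinate dehydrogenase, is also an enzyme of the tricarboxylic acid cycle and is encoded by nuclear genes alone. All 4 of its genes had a higher mean in TCEP (3 of 4 under quantile normalisation, with Sdhc at -0.02), and the median difference was 0.14, or 0.08 without TCEP animal 2. Sdhb, the iron-sulfur subunit, read 4.94, 4.88 and 4.97 in corn oil and 5.08, 5.25 and 5.23 in TCEP. The groups were apart, the difference was 0.26 ± 0.09 (limma p 0.0332, adjusted 0.527), and a second probe gave 0.34 ± 0.10. Sdha, the flavoprotein that oxidises succinate, read 6.39, 6.39 and 6.56 against 6.61, 6.79 and 6.47, a difference of 0.17 ± 0.12 in which TCEP animal 3 fell below corn oil animal 3. The membrane anchors that bind ubiquinone differed less from corn oil relative to their errors, Sdhd by 0.11 ± 0.10 and Sdhc by 0.05 ± 0.09, with overlapping groups.

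Complex III, the cytochrome bc1 complex, had 8 of 8 genes with a higher mean, but only 4 of 8 under quantile normalisation and 6 of 8 after normexp correction. The median was 0.08, and 0.02 under quantile normalisation or without TCEP animal 2, and 0.16 without TCEP animal 1. Uqcrfs1, the Rieske iron-sulfur protein that takes electrons from ubiquinol, read 5.15, 5.07 and 5.43 in corn oil and 5.32, 5.45 and 5.40 in TCEP, a difference of 0.17 ± 0.12 in which corn oil animal 3 lay within the TCEP range. The core proteins differed by 0.23 ± 0.13 (Uqcrc2) and 0.05 ± 0.11 (Uqcrc1), both with overlap, and Uqcrc1 was at -0.02 under quantile normalisation. The small subunit Uqcr10 was the only gene of the 8 with groups apart, at 7.80, 7.60 and 7.87 against 8.00, 8.02 and 7.90, a difference of 0.22 ± 0.11. Uqcrb and Uqcr11, also small subunits, differed by 0.03 ± 0.09 and 0.00 ± 0.09, and by -0.07 and -0.10 under quantile normalisation. The further probes of Uqcr11 gave 0.25 ± 0.12 and 0.14 ± 0.10, and those of Uqcrb ran from 0.05 to 0.10.

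Complex IV, cytochrome c oxidase, had 0 genes with every TCEP array above every corn oil array and 2 of 16 genes with every TCEP array below, against 10.3% and 7.06% of all names. This count follows the symbols. Ndufa4, whose groups were apart and higher, is counted in complex I, and the 16 include the pseudogene Cox6c-ps1 and 4 isoforms of other tissues. Its median difference was 0.07 with 11 of 16 genes higher, and -0.01 with 8 of 16 higher under quantile normalisation. The median was 0.03 without corn oil animal 2, 0.05 without TCEP animal 2, 0.04 without TCEP animal 3 and 0.12 without TCEP animal 1, and no test of the difference between complexes was made. The 10 subunits found in most tissues had a median of 0.08 with 9 higher. Cox4i1, which takes part in the regulation of the enzyme by ATP, read 7.68, 7.59 and 7.65 in corn oil and 7.62, 7.76 and 7.77 in TCEP, a difference of 0.08 ± 0.09 with overlap. Cox5a and Cox5b, subunits on the matrix side, differed by 0.06 ± 0.12 (-0.04 under quantile normalisation) and 0.16 ± 0.10. Cox6b1, which faces the intermembrane space, differed by 0.20 ± 0.10, and its lowest TCEP array (5.19) lay just under its highest corn oil array (5.21). Cox6a1 differed by 0.09 ± 0.10, Cox8a by 0.15 ± 0.11 and Cox7a2 by 0.06 ± 0.10 (-0.05 under quantile normalisation). Cox7a2l, a relative of Cox7a2 known for its place in the assembly of respiratory supercomplexes, differed by 0.10 ± 0.15.

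A further 4 isoform genes of complex IV are known mainly from other tissues: Cox4i2 from lung, Cox6b2 from testis, and Cox6a2 and Cox8b from heart and skeletal muscle. Cox4i2 read 2.25, 2.22 and 2.44 in corn oil and 2.11, 2.21 and 2.12 in TCEP, a difference of -0.15 ± 0.10 with every TCEP array below every corn oil array. Cox6b2 read 4.33, 4.13 and 4.17 against 4.08, 4.11 and 4.08, a difference of -0.12 ± 0.09, again without overlap. Second probes for these genes gave -0.21 ± 0.24 and -0.17 ± 0.28. For both genes the direction was the opposite of that of the common liver forms Cox4i1 and Cox6b1, without an adjusted p under 0.05 for any of them.

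Cox6a2 differed by -0.24 ± 0.13 at signals of -1.34 to -0.83, with further probes at -0.10 and 0.10. Cox8b differed by 0.32 ± 0.17 at signals of -4.22 to -3.51, near the floor of the array, and leaving out 1 array at a time moved it between 0.095 and 0.49. The muscle markers Myh1, Myh4, Myh6 and Myh7 were never called well above background, whereas Ckm, Myh2, Tnni3 and Mb were on all 6 arrays. Mb differed by -0.28 ± 0.12 (limma p 0.0483) and Tnni3 by -0.50 ± 0.25. For both, every TCEP array lay below every corn oil array, against 7.06% of all names. Lower at an unadjusted p under 0.05 were 4.19% of all names. Ckm and Myh2 differed by -0.04 ± 0.21 and -0.13 ± 0.23 with overlap. The 5 muscle markers that passed the filter, of 11 on the array, had a mean log2 level of -2.61 to -2.30 in corn oil and -2.67 to -2.31 in TCEP. Of the 5, 1 was higher in TCEP, Actn2, which passed the filter only through the TCEP group. It was well above background on 1 corn oil array, so no difference is read from it.

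Complex V, the ATP synthase, had a higher mean in TCEP for all 15 genes, with a median of 0.13. The count was 11 of 15 with a median of 0.06 under quantile normalisation, and 14 of 15 after normexp correction. The 5 subunits of the catalytic F1 head had a median of 0.18 and were higher under all 3 of these scalings. Atp5f1a, the alpha subunit, read 8.39, 8.29 and 8.38 in corn oil and 8.37, 8.55 and 8.50 in TCEP, a difference of 0.11 ± 0.09 with overlap. Atp5f1b, the beta subunit that holds the catalytic sites, differed by 0.21 ± 0.15, with TCEP animal 1 at 5.01 below corn oil animal 3 at 5.22. Atp5f1c, the gamma subunit of the rotating stalk, had separate groups and a difference of 0.18 ± 0.10, and Atp5f1d, the delta subunit, differed by 0.16 ± 0.11 with overlap. Atp5f1e, the small epsilon subunit of the rotor, read 7.49, 7.39 and 7.42 against 7.60, 7.70 and 7.66. Its groups were apart with a difference of 0.22 ± 0.09 (limma p 0.0449, adjusted 0.536).

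In the membrane rotor, Atp5mc1 and Atp5mc2 encode the same mature c-ring subunit. Atp5mc1 read 7.08, 6.97 and 7.15 in corn oil and 7.23, 7.40 and 7.36 in TCEP, a difference of 0.26 ± 0.10 (limma p 0.0382, adjusted 0.531), and its second probe gave 0.27 ± 0.10. The main probe of Atp5mc2 gave 0.10 ± 0.09 with overlap, and its other probes 0.29 ± 0.10 and 0.14 ± 0.09. Atp5if1 encodes the inhibitor that binds the F1 head and blocks ATP hydrolysis when the membrane potential fails. It read 3.90, 3.82 and 3.86 in corn oil and 4.11, 4.08 and 4.06 in TCEP, the narrowest spread of the 6 genes, and differed by 0.22 ± 0.08 (limma p 0.0355, adjusted 0.530). Among the 4 peripheral stalk genes, which hold the head still against the rotor, 2 had separate groups, against 10.3% of all names. These were Atp5pd, which differed by 0.20 ± 0.10, and Atp5pb, by 0.13 ± 0.09. Atp5pf and Atp5po differed by 0.06 ± 0.09 and 0.06 ± 0.10 with overlap. Each of the latter changed sign in at least 1 alternative. The membrane subunits Atp5me and Atp5mg differed by 0.05 ± 0.09 and 0.01 ± 0.10, and by -0.03 and -0.08 under quantile normalisation.

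Where a gene had several probes, most gave the same direction. Of 37 genes with more than 1 probe above the filter, 32 had all probes on the same side of 0, and 44 of 52 further probes took the side of the brightest probe used for the gene. Probes of Cox6a2, Ndufb4, Ndufc2, Ndufs5 and Ndufv3 disagreed. For Ndufc2, an accessory subunit of complex I, the brightest probe gave 0.15 ± 0.10 and the other -0.30 ± 0.10 at a limma p of 0.0261, so no direction is given for this gene. For Ndufv3, an accessory partner of the flavin subunit, the brightest probe gave -0.05 ± 0.10, and the others gave 0.28 ± 0.12, 0.08 ± 0.10 and 0.11 ± 0.11.

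The other genes of the pathway also had mostly higher means in TCEP, again with 0 genes at an adjusted p under 0.05 by limma. Of the assembly factors of complex I, 13 of 13 tested had a higher mean with a median of 0.16 (0.15 under quantile normalisation). Acad9, an acyl-CoA dehydrogenase relative needed to assemble complex I, read 3.31, 3.06 and 3.10 in corn oil and 3.51, 3.65 and 3.67 in TCEP, and differed by 0.45 ± 0.11 (limma p 0.00537, adjusted 0.449) without overlap. In the other assembly lists, 1 of 2 complex II factors, 5 of 6 complex III factors, 16 of 20 complex IV factors and 4 of 4 complex V factors were higher. Sdhaf2, which helps to attach the flavin to Sdha, differed by 0.27 ± 0.09 (limma p 0.0191), and Lyrm7, a chaperone of the Rieske protein, by 0.48 ± 0.17 (limma p 0.0259). No complex IV or complex V factor had an unadjusted p under 0.05.

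Around the chain itself, 14 of 17 tricarboxylic acid cycle genes were higher, with a median of 0.12 (0.06 under quantile normalisation), and 2 of the 17 were higher at an unadjusted limma p under 0.05 (5.01% of all names were), among them Dld, the dihydrolipoamide dehydrogenase, at 0.39 ± 0.16 (limma p 0.046). In a list of ATP and phosphate carriers, uncoupling proteins and outer membrane channels, 6 of 7 tested were higher. The channel Vdac1 was at 0.36 ± 0.11 (limma p 0.0145) and the phosphate carrier Slc25a3 at 0.18 ± 0.09. The ADP/ATP carriers Slc25a5 and Slc25a4 differed by 0.09 ± 0.11 and -0.02 ± 0.10. Among genes of the cristae, 10 of 11 were higher with a median of 0.12 (0.11 under quantile normalisation). Of the 11, 2 were higher at an unadjusted limma p under 0.05, Apoo (0.31 ± 0.11) and Tafazzin (0.20 ± 0.08), against 5.01% of all names. Of the mitochondrial ribosomal proteins, 60 of 66 were higher with a median of 0.11 (0.06 under quantile normalisation), and 2 of them, Mrpl44 (0.30 ± 0.10) and Mrpl22 (0.24 ± 0.10), had an unadjusted limma p under 0.05, a smaller share than the 5.01% of all names. The list of electron carriers and ubiquinone synthesis genes had 15 of 20 higher with a median of 0.08.

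The regulators of mitochondrial gene expression had 9 of 18 higher means among those tested and a median of 0.0079 (-0.0088 under quantile normalisation). Of the 20 on the array, Ppargc1a and Esrrg did not pass the filter, being well above background on at most 2 arrays, and no difference is given for them. Esrra, the nuclear receptor ERR alpha, differed by 0.14 ± 0.10, Gabpa by 0.11 ± 0.09, Tfam, the mitochondrial transcription factor, by -0.03 ± 0.10, and Nrf1 by -0.10 ± 0.11. Ppargc1b, a coactivator, at -0.49 ± 0.24, and Gabpb1, the partner of Gabpa, at -0.24 ± 0.10, had every TCEP array below every corn oil array. For Gabpa and another gene of the list, Mterf1 (0.21 ± 0.10), every TCEP array lay above every corn oil array. The groups were thus apart for 2 of the 18 in each direction, against 7.06% of all names lower and 10.3% higher. Yy1 differed by -0.16 ± 0.11 with overlap. These regulators were named after their values were seen, and none had an unadjusted limma p under 0.05. Ndufab1 differed by -0.03 ± 0.09. The mitochondrially encoded subunits were not matched to probes and were not analysed here.

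Markers of other liver cells differed in both directions. The 2 B cell markers tested were higher in TCEP, with a median of 0.97 at low signals and no unadjusted limma p under 0.05. Of the Kupffer cell and macrophage markers, 6 of 9 were lower with a median of -0.05. Their median deviation ran from -0.905 in corn oil animal 1 to 0.595 in corn oil animal 3. Of the cholangiocyte markers, 4 of 5 tested had a higher mean in TCEP, and Krt7 was lower at -0.27 ± 0.18. At an unadjusted p under 0.05, 2 of the 5 were higher, against 5.01% of all names. These were Epcam at 0.52 ± 0.16 (limma p 0.0157) and Spp1 at 1.04 ± 0.35 (limma p 0.0239). All 5 cholangiocyte markers were well above background on all 6 arrays, and their mean log2 level ran from -2.61 to -2.31 in corn oil and from -2.37 to -1.76 in TCEP. Of the stellate cell and fibroblast markers, 8 of 9 had a lower mean, with Lrat, which stores vitamin A as its esters, at -0.43 ± 0.15 (limma p 0.029). It was the 1 of the 9 lower at an unadjusted p under 0.05, against 4.19% of all names. Of the hepatocyte markers, 7 of 10 had a lower mean with a median of -0.09. The part of these cell markers in the differences of the oxidative phosphorylation genes was not tested.

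Over 17 ways of processing the arrays, 42 genes kept a higher mean and 6 a lower mean, and 27 changed sign in at least 1 of them. The 17 are not separate checks. Both changes of the dim-probe filter, the trended variance model, the replicate block and kept outlier spots left these genes' differences as reported. They could not change a sign. The deposited table holds nearly the same values (median 0.1141), and median centring moves all genes of an array alike. The median over the 75 genes stayed above that of all gene names in all 17, and was closest to it after quantile normalisation, at 0.03 against 0.0082.

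**Figure D5:**
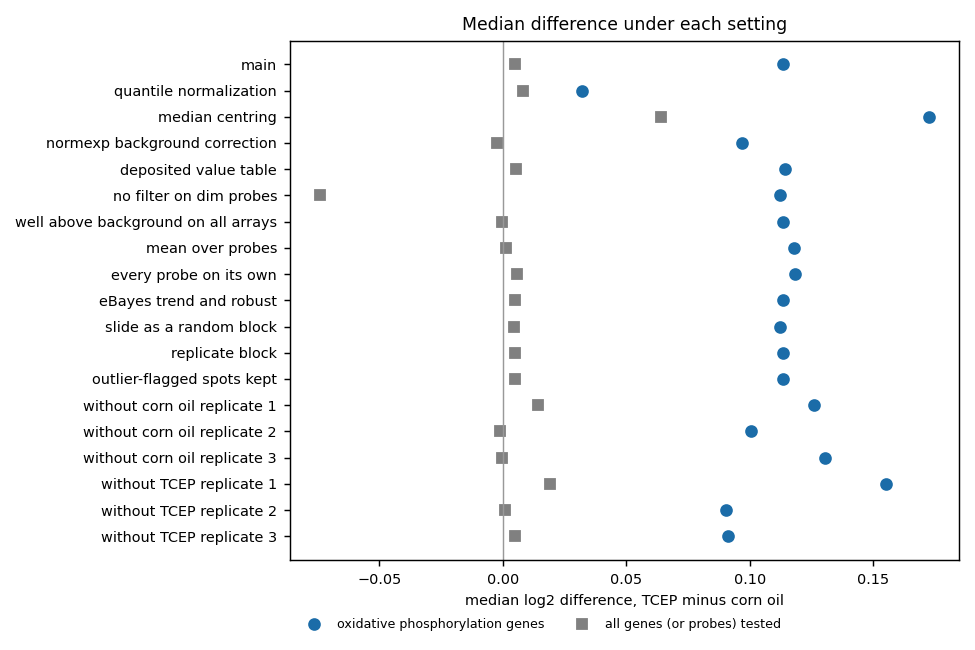
Median log2 difference, TCEP minus corn oil (x axis), over the oxidative phosphorylation genes (blue circles) and over all gene names or probes tested (grey squares), as reported (top row) and under each alternative (other rows). The blue circles run from 0.03 under quantile normalisation to 0.17 under median centring, and all lie to the right of the grey square in their row.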

How the data were processed

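Liver RNA of 3 corn oil and 3 TCEP rats was measured on 6 Agilent 1-colour arrays of 62976 spots. The deposited intensity values are background-subtracted and spatially detrended spot signals, made by the authors with Agilent Feature Extraction 10.7.1.1, per the file headers (10.7 per the submitters' processing notes), and not scaled between arrays. The authors' deposited value table holds a ratio, each signal over its array's 75th percentile, as its values set against the scanner files showed; no source used here records further steps. Here log2 signal minus the array's 75th percentile was used. Control spots (1319) were left out, and 64 outlier-flagged spots, 0 of them on the probes that represent the 75 genes, were set missing; 5 saturated spots were kept. A total of 37043 probes well above background on all arrays of a group were kept, and the probe with the highest mean stood for a gene. RefSeq accessions gave 27460 probes a symbol, and of 27642 names tested 10982 were symbols.

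Groups were compared with limma 3.58.1 (R 4.3.3, lmFit and eBayes, two-sided) over all names with Benjamini-Hochberg adjustment, without a block, and the fit was tested on simulated data. Values are differences of log2 means ± SE. The number of arrays limits the precision, with a median SE of 0.145 over all names. A gene could be named with values if it was at an unadjusted p under 0.05, the highest, lowest or brightest of its complex, a catalytic core subunit or one of a set of paralogs. Other genes the text names were added as further subunits given with their difference, as probe disagreements, or as assembly and pathway genes from listed sets. A subunit of complex I and a gene of the tricarboxylic acid cycle list enter the counts and medians but are not reported here by name. The genes, lists and markers were chosen with earlier results of these data known. Alternatives covered scaling, background correction, the deposited table, filters, probe summaries, the variance model, slide and replicate blocks, and each array left out.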

Additional observations from a re-analysis of the deposited data

How the results depend on the processing

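No oxidative phosphorylation gene passed an adjusted p of 0.05 in limma under any alternative, and the median over the genes stayed above 0 in all of them. Quantile normalisation gave 1 gene (Ndufs1) higher at an unadjusted p under 0.05 (4.58% of all names), 11 with groups apart and higher (9.28%) and 9 apart and lower (7.11%). The medians were 0.032 over all genes, 0.051 for complex I, 0.034 for complex II, -0.015 for complex IV and 0.056 for complex V. Under it the named genes Ndufs7 (-0.068), Ndufa6 (-0.014), Sdhc (-0.020), Uqcrc1 (-0.023), Uqcrb (-0.066), Uqcr11 (-0.097), Cox5a (-0.036), Cox7a2 (-0.045), Atp5me (-0.031) and Atp5mg (-0.084) changed sign. Median centring, under which 62.1% of all names were higher, gave 0 genes apart and lower (4.26% of all names), a complex I median of 0.18 and Ndufv3 at 0.0055. Normexp gave 11 genes higher at an unadjusted p under 0.05 (6.7% of all names), with Ndufs7 at -0.029, Ndufv3 at 0.031 and Uqcrc1 at -0.012. The mean over probes gave 0 genes apart and lower (7.23% of all names), Ndufc2 at -0.073 and Ndufv3 at 0.10. With every probe on its own, 109 of 127 probes were higher, 11 were higher and 1 lower at an unadjusted p under 0.05 (4.84% and 4.1% of all probes). That count of higher genes was 1 when dim probes were kept (2.24% of all names) and 12 under a trended, robust variance model (6.21%). The cause of these changes was not tested.

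Replicate numbers did not pair the animals (correlations of deviations -0.049, -0.165 and -0.015). With the replicate number as a block 2 genes, Ndufs1 and Ndufb6, were higher at an unadjusted limma p under 0.05, against 3.5% of all names. In either direction the names at that level went from 2543 to 1901. With slide as a random block 7 genes were higher at that level, against 6.02% of all names.

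Leaving out 1 array at a time gave 0 to 5 genes higher (2.95% to 5.84% of all names) and 0 to 2 lower (2.87% to 5.8%) at an unadjusted p under 0.05, 23 to 42 apart and higher (13.6% to 17.2%), and 3 to 7 apart and lower (10.3% to 15.2%). Medians ran from 0.099 to 0.16 for complex I, 0.080 to 0.18 for II, 0.024 to 0.16 for III, 0.030 to 0.12 for IV and 0.11 to 0.19 for V. Sign changes also occurred for Ndufa5, Ndufa7, Ndufb4, Uqcrq, Cox6c and Cox6c-ps1, and among the genes described with values for Atp5mg (-0.038 to 0.087), Uqcrc1 (-0.010 to 0.12), Uqcr11 (-0.024 to 0.035), Cox5a (-0.0097 to 0.15), Ndufs7 (-0.022 to 0.092) and Cox7a2l (-0.014 to 0.20). Signals under the 75th percentile, such as those of Cox8b, Cox6a2 and Ndufa7, limit what can be read for those genes.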
